A study of Mus musculus with 15 samples.

Results

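The genes described here are a fixed list of 8 mouse genes of the red cell membrane, of carbon dioxide handling and of the response to erythropoietin: Car1, Car2, Epor, Rhag, Ank1, Add2, Aqp1 and Tfrc. They were chosen by symbol, and all 8 of 8 were found among the 23337 gene symbols of the series. RNA was sequenced from progenitors sorted out of mouse bone marrow, in 15 libraries. The groups were Trappc1 knockout (KO) GMP (n = 3, numbered 1, 3 and 4), wild-type (WT) GMP (n = 4), KO CMP (n = 4) and WT CMP (n = 4). GMP are granulocyte-monocyte progenitors and CMP are common myeloid progenitors. Per the labels, both were gated as negative for lineage markers and Sca1 and positive for CD117 and CD34, with CD16/32 high in GMP and low in CMP. All groups are labelled as untreated. The promoter or Cre that drives the deletion, the part of Trappc1 removed, the strain, the age and the number of animals are not given in the sources used for this work. Nothing in the labels ties a library to a mouse of its own, so p-values here reflect only how far libraries of a group spread, part of which may be technical.

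Red cells carry carbon dioxide with the help of carbonic anhydrases, enzymes that convert it to bicarbonate, and of membrane channels that let gas, water and ammonia pass. Their membrane is held by a skeleton of spectrin and actin, to which ankyrin and adducin are attached. Erythroid precursors need erythropoietin, read by its receptor Epor, and large amounts of iron, taken up through the transferrin receptor Tfrc, which many dividing cells also use. The CMP gate is known to hold cells with erythroid and megakaryocytic potential beside cells with granulocytic and monocytic potential, while the GMP gate is known for the granulocytic and monocytic kind.

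The promoters of 4 members are shown because 3 of them (Epor, Rhag and Aqp1) were lower together in GMP than in CMP and the other (Tfrc) went the other way. RefSeq promoter windows on GRCm38.p6 matched 5 of the 8 members. Each sequence is the 250 bases before the annotated start, 5′ to 3′ on the strand of the gene, and capitals mark matches on either strand to a GATA motif (the letters AGATAA or the letters AGATAG, and likewise TGATAA or else TGATAG) or a CACC box (CCNCNCCC). Tfrc has a further annotated start whose window is not shown.
Epor, chr9:21963577-21963826, minus strand: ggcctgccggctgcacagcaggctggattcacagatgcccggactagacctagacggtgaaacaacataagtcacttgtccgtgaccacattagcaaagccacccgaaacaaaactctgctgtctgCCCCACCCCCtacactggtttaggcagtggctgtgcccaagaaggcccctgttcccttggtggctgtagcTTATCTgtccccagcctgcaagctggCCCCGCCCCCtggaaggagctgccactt
Rhag, chr17:40810899-40811148, plus strand: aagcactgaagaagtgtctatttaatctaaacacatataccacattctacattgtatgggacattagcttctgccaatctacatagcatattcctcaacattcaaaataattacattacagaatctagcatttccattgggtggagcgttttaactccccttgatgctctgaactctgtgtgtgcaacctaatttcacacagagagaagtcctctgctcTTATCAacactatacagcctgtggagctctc
Aqp1, chr6:55336049-55336298, plus strand: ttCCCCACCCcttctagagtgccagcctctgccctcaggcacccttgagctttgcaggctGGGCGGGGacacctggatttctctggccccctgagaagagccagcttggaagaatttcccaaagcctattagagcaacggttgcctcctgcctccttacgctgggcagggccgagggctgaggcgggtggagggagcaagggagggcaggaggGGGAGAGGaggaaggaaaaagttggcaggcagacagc
Tfrc, chr16:32608646-32608895, plus strand: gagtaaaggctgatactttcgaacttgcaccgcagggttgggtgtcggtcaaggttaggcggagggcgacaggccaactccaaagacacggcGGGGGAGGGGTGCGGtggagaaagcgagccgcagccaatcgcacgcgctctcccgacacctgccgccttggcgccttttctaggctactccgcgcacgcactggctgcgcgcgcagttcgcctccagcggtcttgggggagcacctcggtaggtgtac
The Epor window held 1 GATA match, 49 to 54 bases before the start, and 4 CACC matches that overlap in pairs. Rhag held 1 GATA match, 26 to 31 bases before the start, and 0 CACC matches. Aqp1 held 0 GATA and 3 CACC matches, and this Tfrc window held 0 GATA and 3 CACC matches, which overlap. In the Add2 window, not printed, there were 1 GATA and 2 CACC matches. Of 32851 windows of the same length in the table, 26.5% held a GATA match and 45.9% a CACC match. These matches are letters in a window, and binding was not measured.

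On GRCm38 (GENCODE M21), Car1 (14766216 to 14808368, minus strand) and Car2 (14886273 to 14900770, plus strand) both lie on chromosome 3. Epor lies on chromosome 9 (21958897 to 21963506, minus strand), Rhag on chromosome 17 (40811126 to 40840754, plus strand) and Tfrc on chromosome 16 (32608920 to 32632794, plus strand). Ank1 lies on chromosome 8 (22974844 to 23150497, plus strand), Add2 on chromosome 6 (86028681 to 86124409, plus strand) and Aqp1 on chromosome 6 (55336432 to 55348555, plus strand). The antisense genes Gm15816 and Gm44089 overlap Ank1 and Add2, Ank1 also contains Mir486 and Mir3107, and a processed pseudogene lies within Car1. Use of strand in the counting is not stated, so reads of Ank1 and Add2 and of their antisense partners cannot be told apart.

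Library totals were 61.3 to 120.3 M units of estimated count, or 15.3 to 30.1 M fragments at 4 units each, and levels are given as counts scaled to library size (CPM) with TMM factors. Trappc1, the targeted gene, measured 6.09, 24.1 and 25.2 CPM in KO GMP libraries 1, 3 and 4, against 30.9 to 41.3 CPM in WT GMP. In CMP it measured 5.56, 3.83, 11.7 and 13.4 CPM in KO libraries 1 to 4, against 18.4 to 26.2 CPM in WT. Fcgr3, which encodes CD16, was at 125 to 311 CPM in KO GMP, 239 to 315 CPM in WT GMP, 12.9 to 31.1 CPM in KO CMP and 36.6 to 115 CPM in WT CMP. KO GMP library 1 held the 125 CPM, where no other GMP library was under 239 CPM. It also held 547 CPM of Cd34, against 206 to 326 CPM in the other GMP libraries and 525 to 747 CPM in CMP. KO GMP library 1 and KO CMP libraries 1 and 2 stood apart from the rest. They held 109 to 204 CPM of Xist, the X-inactivation RNA, where no other library exceeded 2.17 CPM. The summed level of 10 granulocyte-monocyte markers was 22595 CPM in KO GMP library 1, against 41357 to 46928 CPM in the other GMP libraries and 22979.5 and 25446 CPM in WT CMP libraries 1 and 2. KO effects on the 8 genes are therefore given over all libraries, without those KO libraries, and within numbers 1 and 2 and numbers 3 and 4. The split by number was known from earlier results of these data.

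Markers of later erythroblasts were low in every group. The summed level of 10 such markers (globins, Alas2, Slc4a1 and others) was 2.53 to 10.6 CPM in KO GMP, 7.41 to 13.5 CPM in WT GMP, 10.6 to 18.5 CPM in KO CMP and 12.3 to 21.0 CPM in WT CMP. Hbb-b2, an adult beta globin, was at 0 in all KO GMP and all WT GMP libraries. KO CMP library 2 held 3.72 CPM of Hbb-b2 and 0.112 CPM of Hbb-b1, another beta globin. The other CMP libraries held at most 0.274 CPM of Hbb-b2 and 2.2 to 5.13 CPM of Hbb-b1. How the counting divided reads shared between globin genes is not stated, so values of single globin genes, also those at 0, are uncertain. Slc4a1, the red cell anion exchanger, was at 0 in all KO GMP libraries and in WT GMP libraries 1 and 4. It did not exceed 0.0952 CPM in any library. Hba-a1, an adult alpha globin, was at 0 in all KO CMP libraries and in WT CMP libraries 1, 2 and 3. WT CMP library 4 held 3.47 CPM of it. Other globin RNAs were detected at a few CPM, with Hba-a2, a further adult alpha globin, at 0.349 to 4.59 CPM in KO GMP, 1.54 to 6.87 CPM in WT GMP, 0.0951 to 5.68 CPM in KO CMP and 4.18 to 4.43 CPM in WT CMP.

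Per kilobase of exon, the carbonic anhydrase Car2 stood highest of the 8 in CMP and the transferrin receptor Tfrc stood highest in GMP. In KO GMP the order was Tfrc at 38.2 ± 2.76 CPM per kilobase, Car2 at 18.7 ± 13.7, Car1 at 1.38 ± 1.92, Aqp1 at 1.32 ± 1.93, Epor at 0.709 ± 0.726, Rhag at 0.0534 ± 0.0463, Ank1 at 0.0472 ± 0.028 and Add2 at 0 (SD, n = 3). In WT GMP the levels were 38.0 ± 2.12 CPM per kilobase for Tfrc, 9.43 ± 0.243 for Car2, 0.235 ± 0.165 for Epor, 0.169 ± 0.0467 for Aqp1, 0.0898 ± 0.0934 for Car1 and 0.0326 ± 0.013 for Ank1, with Rhag and Add2 at 0 (SD, n = 4). Below Car2, neighbours in the GMP orders overlapped between libraries, apart from Epor and Rhag in KO GMP and from genes at 0. In KO CMP the order was Car2 at 104 ± 30.8 CPM per kilobase, Car1 at 25.1 ± 12.6, Tfrc at 22.9 ± 1.46, Aqp1 at 12.2 ± 4.3, Epor at 4.41 ± 0.997, Rhag at 0.8 ± 0.479, Ank1 at 0.168 ± 0.0473 and Add2 at 0.141 ± 0.0574 (SD, n = 4). Car1 and Tfrc overlapped there, and so did Ank1 and Add2. In WT CMP it was Car2 at 63.3 ± 17.8 CPM per kilobase, Tfrc at 28.3 ± 5.62, Car1 at 16.4 ± 1.87, Aqp1 at 7.93 ± 0.655, Epor at 2.28 ± 0.645, Rhag at 0.607 ± 0.165, Ank1 at 0.15 ± 0.0252 and Add2 at 0.124 ± 0.0387 (SD, n = 4), where Ank1 and Add2 were the overlapping neighbours. The plot of member levels by library shows all values.

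**Figure D1:**
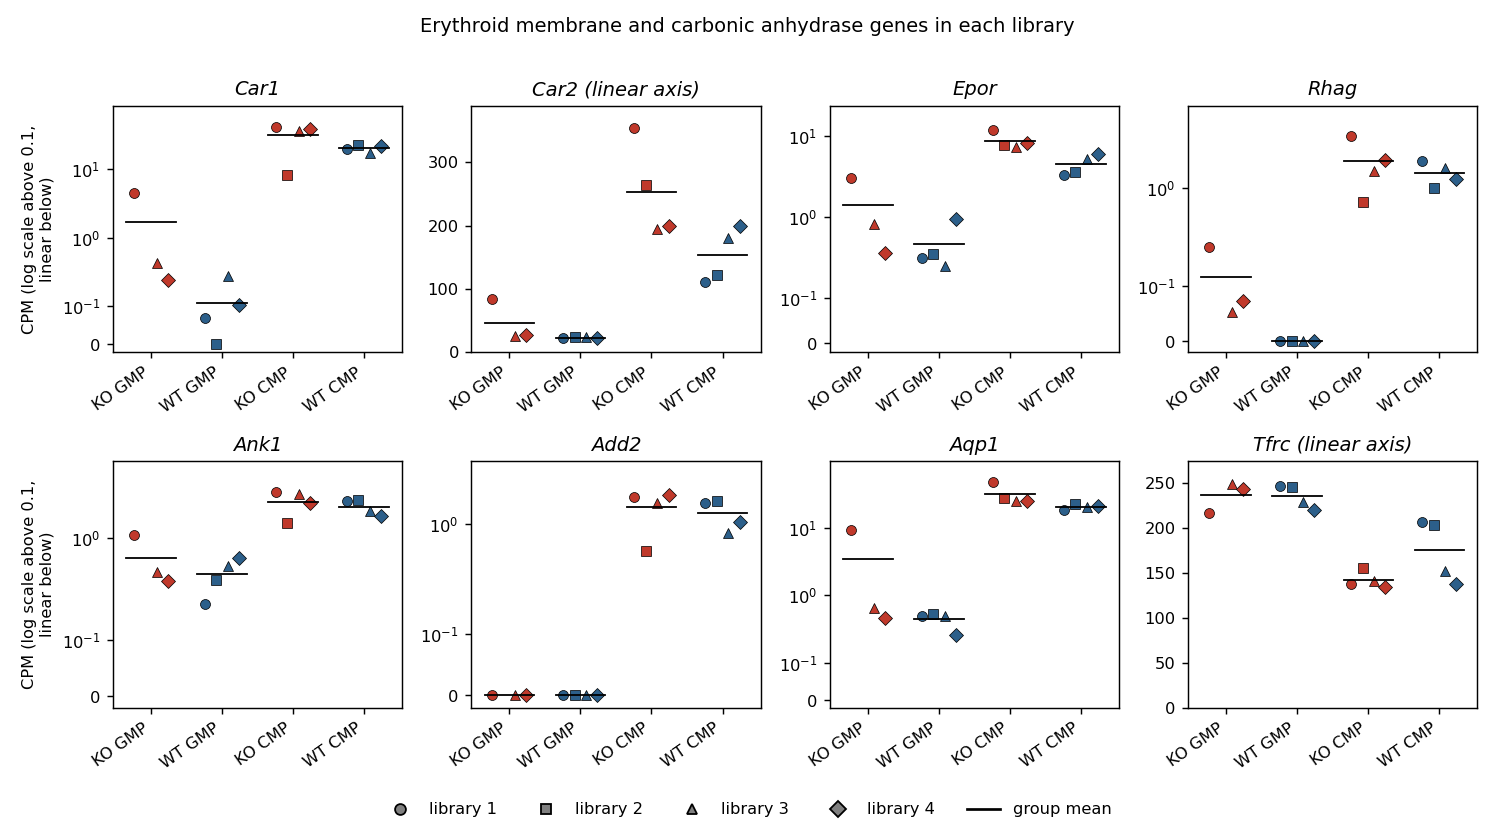
Level of each of the 8 genes in CPM (vertical axis, linear for Car2 and Tfrc, and for the others linear near 0 and logarithmic above) in every library, grouped as KO GMP, WT GMP, KO CMP and WT CMP. Points are libraries marked by library number: 7 genes sit lower in GMP than in CMP in both genotypes, Tfrc sits higher, and KO GMP library 1 lies above the other GMP libraries for Car1, Car2, Epor, Rhag, Ank1 and Aqp1.

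GMP were compared with CMP first, to see how the 8 genes differ between the sorted stages. In WT cells 7 of the 8 were lower in GMP, and Tfrc was higher. In edgeR's quasi-likelihood test, with Benjamini-Hochberg adjustment across the whole set of 15181 tested genes and a threshold of 0.05, 14.2% of all tested genes were called lower and 11.3% higher in this comparison. The median log2 difference over the 8 genes was -4.41, or -4.15 with genes at 0 set to their bounds, against -0.02 over all tested genes. All 8 passed the filter on low values, but Rhag and Add2 passed through CMP alone, so a difference was built into their passing. In these bulk libraries fewer erythroid cells and less RNA per cell cannot be told apart.

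Car1 and Car2, the cytosolic carbonic anhydrases of red cells, were both lower in WT GMP. Car1 was at 0.0692, 0, 0.274 and 0.105 CPM in WT GMP libraries 1 to 4, against 20, 22.4, 17.4 and 22.2 CPM in WT CMP libraries 1 to 4. The GMP values amount to about 10.2 fragments in all, and every CMP library lay far above them. The log2 difference was -7.35 ± 1.0 (SE, adjusted p = 0.000286). Car2 was at 22.5, 23.5, 23.2 and 22.2 CPM in WT GMP, against 111, 122, 181 and 199 CPM in WT CMP. It was thus well detected in GMP, with little spread, and still 6.71-fold lower than in CMP (log2 difference -2.75 ± 0.35, adjusted p = 0.00022). In WT CMP, libraries 1 and 2 lay below libraries 3 and 4.

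Epor, the erythropoietin receptor, was at 0.312, 0.354, 0.246 and 0.956 CPM in WT GMP libraries 1 to 4, against 3.32, 3.62, 5.14 and 6.03 CPM in WT CMP. The groups did not overlap, and Epor was 9.68-fold lower in GMP (log2 difference -3.28 ± 0.58, adjusted p = 0.00145). Aqp1, a water channel of the red cell membrane, was at 0.502, 0.523, 0.492 and 0.262 CPM in WT GMP, against 18.6, 22.8, 20.9 and 21.0 CPM in WT CMP. Its CMP values kept within a narrow band, and it was 46.8-fold lower in GMP (log2 difference -5.55 ± 0.80, adjusted p = 0.000403).

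Rhag, the Rh-associated glycoprotein that carries ammonia and holds the Rh complex in the membrane, was at 0 in all WT GMP libraries, against 1.86, 0.988, 1.60 and 1.23 CPM in WT CMP. With a floor of 3 fragments over the group at 0, that is at least 36.7-fold lower (adjusted p = 0.000168). Add2, beta adducin, which caps actin in the membrane skeleton, was also at 0 in all WT GMP libraries, against 1.55, 1.62, 0.822 and 1.03 CPM in WT CMP. That is at least 32.5-fold lower (adjusted p = 0.000177). Ank1, the erythroid ankyrin that links spectrin to the membrane, differed less, at 0.225, 0.382, 0.53 and 0.629 CPM in WT GMP, against 2.28, 2.34, 1.84 and 1.64 CPM in WT CMP (log2 difference -2.19 ± 0.40, adjusted p = 0.00178). All 3 genes were low even in CMP. Rhag and Add2 passed the filter on low values through CMP alone, so a difference was built into their tests.

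Tfrc, the receptor for iron-loaded transferrin, went the other way. It was at 247, 245, 229 and 219.6 CPM in WT GMP libraries 1 to 4, against 206, 203, 152 and 138 CPM in WT CMP. Each GMP library lay above each CMP library, with a fold of 1.34 (log2 difference 0.43 ± 0.12, adjusted p = 0.0165). Without WT CMP library 3 the log2 difference was 0.36 and no longer passed (adjusted p = 0.0593). Over all tested genes, 17.0% were lower and 14.8% higher without overlap between the WT groups, as were 7 and 1 of the 8 genes.

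The same 7 genes were lower and Tfrc higher in KO GMP than in KO CMP, where 10.5% of all tested genes were called lower and 10.7% higher. KO GMP libraries lay below KO CMP libraries without overlap for those 7 genes (14.5% of all tested genes), and above them for Tfrc (13.4%). The log2 differences were -4.19 ± 0.91 for Car1 (adjusted p = 0.00502), -2.48 ± 0.39 for Car2 (adjusted p = 0.000888), -2.63 ± 0.62 for Epor (adjusted p = 0.00813), -3.89 ± 0.71 for Rhag (adjusted p = 0.00307), -1.83 ± 0.44 for Ank1 (adjusted p = 0.00889), -3.21 ± 0.78 for Aqp1 (adjusted p = 0.00933) and 0.74 ± 0.13 for Tfrc (adjusted p = 0.00125). Add2 was at 0 in all KO GMP libraries, at least 29.0-fold lower than in KO CMP (adjusted p = 0.000514). Rhag and Add2 passed the filter on low values through CMP alone, so a difference was built into their tests. They are part of the count of genes lower and of the median given here. The median over the 8 genes was -2.92, against -0.02 over all tested genes.

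KO GMP library 1 decided much of the size of these differences. Without it the log2 differences were -6.50 for Car1, -5.84 for Aqp1, -3.88 for Epor, -4.88 for Rhag, -3.27 for Car2, -2.43 for Ank1 and 0.80 for Tfrc, and the same 8 calls were made. Epor (-2.34) was not called without KO GMP library 3, and Ank1 was not called without KO GMP library 3 (-1.63) or 4 (-1.55). Without all 3 KO libraries that stood apart, Car1 was at -6.75, Aqp1 at -5.51, Epor at -3.71, Rhag at -4.74, Car2 at -2.91, Ank1 at -2.53 and Tfrc at 0.84.

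**Figure D2:**
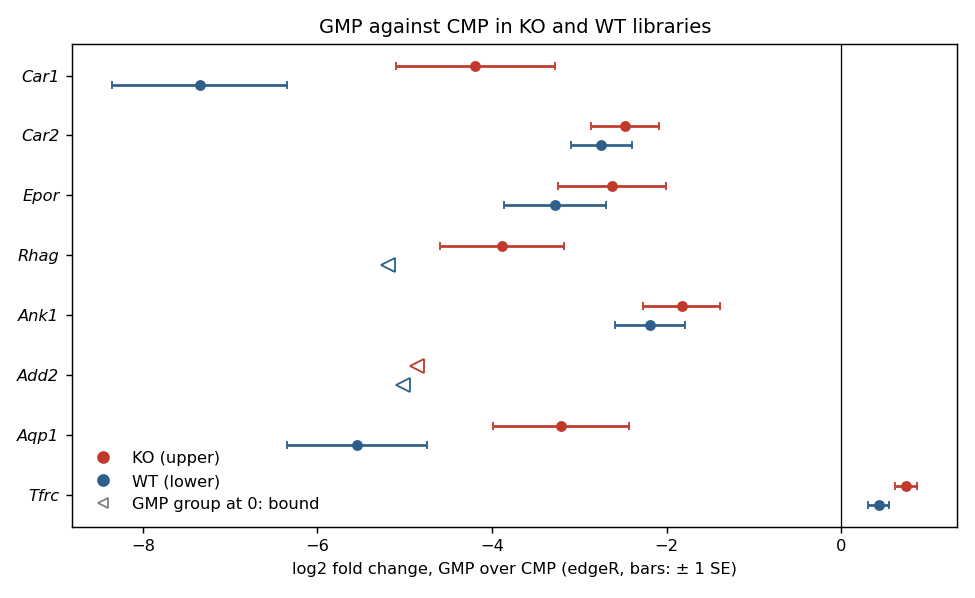
Log2 difference of GMP over CMP (horizontal axis) for each of the 8 genes, with KO above WT in each pair and bars for the SE; open triangles mark bounds, at least this far below 0, where a GMP group is at 0 (Add2 in both genotypes and Rhag in WT). All genes except Tfrc lie left of 0, and KO values of Car1 (-4.19) and Aqp1 (-3.21) lie nearer to 0 than the WT values (-7.35 and -5.55).

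The next comparison was KO against WT within CMP. Over all CMP libraries 0 of the 8 genes were called higher or lower, as were 0.0% of all tested genes. Trappc1, the targeted gene, was not called either (log2 difference -1.36 ± 0.41, edgeR adjusted p = 0.243). At an unadjusted p under 0.05, edgeR gave 2 of the 8 genes (Car2 and Tfrc) and 11.6% of all tested genes, and DESeq2 called 0 of the 7 members for which it gave an adjusted p (all but Aqp1). The median log2 difference over the 8 was 0.51, against 0.01 over all tested genes.

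Car2 measured 354, 265, 194 and 199 CPM in KO CMP libraries 1 to 4, against 111, 122, 181 and 199 CPM in WT CMP libraries 1 to 4. The groups touched, since KO libraries 3 and 4 lay at the level of WT libraries 3 and 4 (log2 difference 0.72 ± 0.33, adjusted p = 0.418). Epor measured 11.7, 7.83, 7.39 and 8.17 CPM in KO CMP, against 3.32, 3.62, 5.14 and 6.03 CPM in WT CMP. All KO libraries lay above all WT libraries, but the adjusted p was 0.528 (log2 difference 0.95 ± 0.53). Aqp1 measured 49.0, 28.3, 25.7 and 25.4 CPM in KO CMP, against 18.6, 22.8, 20.9 and 21.0 CPM in WT CMP. It did not overlap either, with the highest value in KO library 1 (log2 difference 0.62 ± 0.63, adjusted p = 0.779). Of all tested genes, 3.25% were higher in KO CMP without overlap and 3.6% lower, where 0 of the 8 were lower.

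Car1 measured 42.2, 8.19, 36.0 and 39.2 CPM in KO CMP, against 20, 22.4, 17.4 and 22.2 CPM in WT CMP. KO library 2 lay below every WT library and the other KO libraries above, and the log2 difference of 0.62 ± 0.70 did not pass (adjusted p = 0.807). Rhag measured 3.38, 0.72, 1.49 and 1.9 CPM in KO CMP, against 1.86, 0.988, 1.60 and 1.23 CPM in WT CMP. Ank1 measured 2.81, 1.39, 2.66 and 2.21 CPM in KO CMP, against 2.28, 2.34, 1.84 and 1.64 CPM in WT CMP. Library 2 held the lowest KO value of both genes and of Add2, which measured 1.74, 0.571, 1.55 and 1.84 CPM in KO CMP, against 1.55, 1.62, 0.822 and 1.03 CPM in WT CMP. Their log2 differences were 0.40 ± 0.55 for Rhag, 0.16 ± 0.38 for Ank1 and 0.18 ± 0.47 for Add2 (adjusted p = 0.849, 0.925 and 0.931). Tfrc measured 137, 155, 140.4 and 134 CPM in KO CMP, against 206, 203, 152 and 138 CPM in WT CMP, and here WT libraries 1 and 2 stood above the rest (log2 difference -0.31 ± 0.12, adjusted p = 0.323). Without the 3 KO libraries that stood apart, the log2 differences in CMP were 0.86 for Car1, 0.35 for Car2, 0.77 for Epor, 0.24 for Rhag, 0.25 for Ank1, 0.42 for Add2, 0.28 for Aqp1 and -0.36 for Tfrc, and none passed (adjusted p = 0.254 to 0.795). WT CMP libraries 1 and 2 were kept in that fit.

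Within numbers 1 and 2, Car2, Epor and Aqp1 were higher in KO CMP than in WT CMP and Tfrc was lower. Both KO libraries here stood apart, with 109 and 204 CPM of Xist against 2.17 and 0.833 CPM in WT CMP libraries 1 and 2. An effect of the KO therefore cannot be told apart from what set those libraries apart, here and wherever CMP numbers 1 and 2 are compared. WT CMP libraries 1 and 2 also differed from WT CMP libraries 3 and 4, as given below, and that difference enters these comparisons too. In the comparison within CMP numbers 1 and 2, 8.23% of all tested genes were called higher and 10.2% lower. Car2 was 2.65-fold higher (log2 difference 1.41 ± 0.12, adjusted p = 4.46e-06), Epor 2.82-fold (1.49 ± 0.45, adjusted p = 0.0362) and Aqp1 1.86-fold (0.90 ± 0.23, adjusted p = 0.0151). Tfrc changed by -0.49 ± 0.08 on the log2 scale (adjusted p = 0.000677). The other 4 did not pass, at 0.25 ± 0.51 for Car1 (adjusted p = 0.798), 0.52 ± 0.66 for Rhag, -0.14 ± 0.38 for Ank1 and -0.46 ± 0.59 for Add2. The calls of Car2 and Tfrc were kept whichever library was left out, with log2 differences of 1.18 to 1.60 and -0.58 to -0.40. Aqp1 was lost without KO CMP library 1 (0.45) or WT CMP library 1 (0.76). Epor was lost without KO CMP library 1 (1.18), 3 (1.48) or 4 (1.48), or WT CMP library 1 (1.43) or 2 (1.56). Car1 turned on single libraries, at -1.37 without KO CMP library 1 (adjusted p = 0.0106) and 0.99 without KO CMP library 2 (adjusted p = 0.0189).

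Within numbers 3 and 4, 0 of the 8 genes were called, and 0.00659% of all tested genes were called higher and 0.0% lower. Trappc1 itself was not called (log2 difference -0.80 ± 0.19, edgeR adjusted p = 0.263), so 0 calls here do not show that the KO had no effect. At an unadjusted p under 0.05, edgeR gave 0 of the 8 and 11.4% of all tested genes. Car2 was at 0.05 ± 0.12 (adjusted p = 0.9), Epor at 0.48 ± 0.44 (adjusted p = 0.699), Aqp1 at 0.29 ± 0.22 (adjusted p = 0.639), Car1 at 0.93 ± 0.51 (adjusted p = 0.51) and Tfrc at -0.08 ± 0.08 (adjusted p = 0.713). The difference of KO from WT was not the same in both number sets for Car2, by 1.36 ± 0.16 (adjusted p = 0.000268). For Tfrc the number sets differed by -0.41 ± 0.11 (adjusted p = 0.0376). In this test of the difference, 3.05% of all tested genes were called higher and 4.59% lower. The Tfrc call was lost with DESeq2's size factors in edgeR (-0.37, adjusted p = 0.0656) and without any of 9 single libraries. Epor differed by 1.02 ± 0.62 (adjusted p = 0.405) and Aqp1 by 0.61 ± 0.32 (adjusted p = 0.312). KO CMP libraries 1 and 2, which stood apart, held less Trappc1 (5.56 and 3.83 CPM) than KO CMP libraries 3 and 4 (11.7 and 13.4 CPM). A differing effect of the KO thus cannot be told apart from other differences between these libraries.

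WT CMP libraries also differed by number, which shares its libraries with the comparisons above. Car2 was lower in WT CMP numbers 1 and 2 than in numbers 3 and 4 by -0.70 ± 0.12 (adjusted p = 0.00137), and Tfrc was higher by 0.49 ± 0.08 (adjusted p = 0.000893). In this comparison 12.3% of all tested genes were called higher and 10.6% lower. The other 6 genes did not pass. For Car2 and Tfrc the WT difference between the number sets was thus of the opposite sign to the difference of KO from WT within numbers 1 and 2.

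Markers of other cells moved with these calls, and their part in the result was not tested. In KO CMP numbers 1 and 2, 10 of 10 granulocyte-monocyte markers fell, with summed levels of 4836 and 5549 CPM in KO libraries against 22979.5 and 25446 CPM in WT libraries. Of 10 megakaryocyte markers 5 rose and 0 fell (882 and 627 CPM in KO, 411 and 409 CPM in WT). Of 8 stem cell markers 6 rose and 0 fell (656 and 629.9 CPM in KO, 333 and 343 CPM in WT), and 9 of 9 stroma markers rose (166 and 233 CPM in KO, 18.7 and 24.8 CPM in WT). Of 7 tested mast cell and basophil markers 0 rose and 5 fell (193 and 169 CPM in KO, 318 and 354 CPM in WT). Of 9 tested late erythroblast markers 0 rose and 1 fell (10.9 and 10.6 CPM in KO, 12.3 and 12.7 CPM in WT). In numbers 3 and 4 the sums of granulocyte-monocyte markers were 12485 and 12978 CPM in KO CMP and 12459 and 13399 CPM in WT CMP. Between WT CMP libraries, 8 of these 10 markers were higher and 1 lower in numbers 1 and 2 than in numbers 3 and 4. The fall in KO within numbers 1 and 2 is thus set against WT libraries that themselves stood high.

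**Figure D3:**
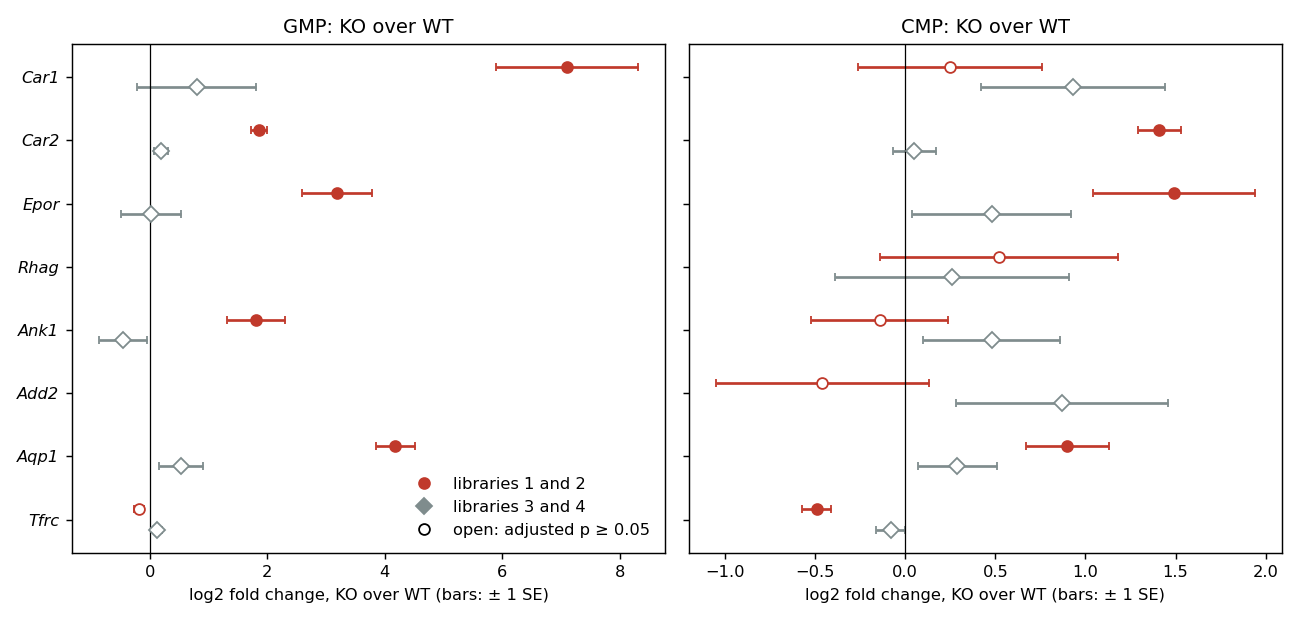
Log2 difference of KO over WT (horizontal axis) with SE bars for the 8 genes, in GMP on the left and CMP on the right, for libraries numbered 1 and 2 (circles) and those numbered 3 and 4 (diamonds). Filled points passed the adjusted threshold: Car2, Epor, Aqp1 and Tfrc in CMP numbers 1 and 2, and Car1, Car2, Epor, Ank1 and Aqp1 in GMP numbers 1 and 2, where KO is library 1 alone and the comparison is of that library; Rhag and Add2 in GMP are not drawn, since a group is at 0.

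In GMP, KO against WT turned on KO library 1. Over all GMP libraries 0 of the 8 genes were called higher or lower in KO, as were 0.0% of all tested genes. Trappc1, the targeted gene, was not called either (log2 difference -0.95 ± 0.45, edgeR adjusted p = 0.77). At an unadjusted p under 0.05, edgeR gave 5 of the 8 genes and 6.49% of all tested genes, and DESeq2 called 2 of the 6 members for which it gave an adjusted p (all but Aqp1 and Add2), Car1 (3.93, adjusted p = 0.0407) and Rhag (adjusted p = 0.00518). The median log2 difference over the 8 was 1.29, against 0.01 over all tested genes.

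Car1 measured 4.48, 0.432 and 0.247 CPM in KO GMP libraries 1, 3 and 4, against 0.0692, 0, 0.274 and 0.105 CPM in WT GMP libraries 1 to 4. KO library 1 alone stood well above the WT range (log2 difference 3.77 ± 0.97, adjusted p = 0.523). Aqp1 measured 9.33, 0.642 and 0.464 CPM in KO GMP, against 0.502, 0.523, 0.492 and 0.262 CPM in WT GMP. Here too KO library 1 was the high one, and library 4 lay inside the WT range (2.97 ± 0.77, adjusted p = 0.523). Car2 measured 83.7, 24.9 and 27.4 CPM in KO GMP, against 22.5, 23.5, 23.2 and 22.2 CPM in WT GMP. These groups did not overlap, though KO libraries 3 and 4 exceeded the highest WT library by little (0.99 ± 0.36, adjusted p = 0.661).

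Epor measured 3.06, 0.811 and 0.363 CPM in KO GMP, against 0.312, 0.354, 0.246 and 0.956 CPM in WT GMP (1.59 ± 0.59, adjusted p = 0.669). Rhag measured 0.25, 0.0526 and 0.0726 CPM in KO GMP, about 8 fragments in all, against 0 in all WT GMP libraries. Against a floor of 3 fragments over the WT group that is at least 3.23-fold higher, and it did not pass (adjusted p = 0.523). Car2 and Rhag were the members higher in KO GMP without overlap, a pattern found in 3.64% of all tested genes, and 0 were lower without overlap, against 3.7%. Ank1 measured 1.07, 0.463 and 0.377 CPM in KO GMP, against 0.225, 0.382, 0.53 and 0.629 CPM in WT GMP (0.52 ± 0.42, adjusted p = 0.959). Tfrc measured 217, 249 and 243 CPM in KO GMP, against 247, 245, 229 and 219.6 CPM in WT GMP, and its libraries overlapped throughout (0.01 ± 0.13, adjusted p = 1). Add2 was at 0 in all KO GMP and all WT GMP libraries. Without KO GMP library 1 the log2 differences were 1.45 for Car1, 0.33 for Aqp1, 0.19 for Car2, 0.34 for Epor, -0.08 for Ank1 and 0.07 for Tfrc, with 0 of the 8 called, and they were the same to within 0.01 without all 3 KO libraries that stood apart.

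Within numbers 1 and 2, KO GMP library 1 was set against WT GMP libraries 1 and 2, on the assumption that the lone KO library varies like the others. The values describe how that 1 library, which stood apart, differed from the WT libraries, and they do not show an effect of the KO. In that fit 6 of the 8 genes were called higher and 0 lower, against 11.0% and 9.0% of all tested genes. Car2 was 3.63-fold higher (log2 difference 1.86 ± 0.14, adjusted p = 3.18e-06) and Aqp1 18.1-fold (4.18 ± 0.33, adjusted p = 5.48e-06). Epor was at 3.19 ± 0.59 (adjusted p = 0.00236) and Ank1 at 1.81 ± 0.49 (adjusted p = 0.0217), but Ank1 was lost without WT GMP library 1 (1.52, adjusted p = 0.107). Car1 passed (adjusted p = 0.00129) on about 90 fragments in the KO library against 1 fragment in both WT libraries, a ratio per library size of 144 with an exact 95% interval of 25.2 to 5761 that covers counting error only. Rhag passed on about 5 fragments against 0 (at least 2.67-fold higher, adjusted p = 0.0144), and the call was lost with values divided by 4 (adjusted p = 0.151) and without WT GMP library 1 (adjusted p = 0.0595) or 2 (adjusted p = 0.066). Tfrc did not pass (-0.18 ± 0.09, adjusted p = 0.202).

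Within numbers 3 and 4 in GMP, 0 of the 8 genes were called, and 0.00659% of all tested genes were called in each direction. Trappc1 itself was at -0.38 ± 0.19 and was not called, so 0 calls here do not show that the KO had no effect. At an unadjusted p under 0.05, edgeR gave 1 of the 8 (Rhag) and 5.2% of all tested genes. Rhag held only 5 and 5 units in KO GMP libraries 3 and 4, against 0 in WT. At 4 units each, that is under the floor of 3 fragments. The log2 differences were 0.80 ± 1.01 for Car1, 0.20 ± 0.12 for Car2, 0.03 ± 0.51 for Epor, -0.45 ± 0.41 for Ank1, 0.53 ± 0.37 for Aqp1 and 0.13 ± 0.08 for Tfrc (adjusted p = 1 for each). Set against the difference in numbers 3 and 4, that of KO GMP library 1 from WT libraries 1 and 2 was larger for Car2 by 1.66 ± 0.18 (adjusted p = 0.000167), Aqp1 by 3.65 ± 0.51 (adjusted p = 0.000789), Epor by 3.16 ± 0.79 (adjusted p = 0.0227), Ank1 by 2.26 ± 0.64 (adjusted p = 0.042) and Car1 by 6.30 ± 1.85 (adjusted p = 0.047). In this comparison, which again rests on 1 KO library, 6.27% of all tested genes were called higher and 4.36% lower. With values divided by 4, Car1 (adjusted p = 0.255) and Ank1 (adjusted p = 0.0701) were lost. Leaving out single libraries other than KO GMP library 1 kept Car2 at 1.62 to 1.75 and Aqp1 at 3.11 to 4.02. Both were called each time. The calls of Car1 and Ank1 were lost in most of these fits, and that of Epor in some. In WT GMP, 0 of the 8 genes were called between numbers 1 and 2 and numbers 3 and 4, where 3.16% of all tested genes were called higher and 5.45% lower. At an unadjusted p under 0.05 this gave 0 of the 8 and 25.4% of all tested genes.

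KO GMP library 1 also stood apart in markers of other cells, and their part in the result was not tested. Its 10 megakaryocyte markers summed to 373 CPM, against 86 and 92.6 CPM in the other KO GMP libraries and 101 to 128 CPM in WT GMP, and 9 of the 10 rose in the comparison within numbers 1 and 2. Its 8 stem cell markers summed to 227 CPM, against 64.3 and 69.2 CPM in the other KO GMP libraries and 62.1 to 72.8 CPM in WT GMP. Its 8 mast cell and basophil markers summed to 1502 CPM, against 905 and 933 CPM in the other KO GMP libraries and 1410 to 1530 CPM in WT GMP, and 4 of 7 tested rose in the comparison within numbers 1 and 2. Its 9 stroma markers summed to 79.8 CPM, where no other GMP library exceeded 2.87 CPM. Of 10 granulocyte-monocyte markers 10 fell. Its late erythroblast markers summed to 2.53 CPM, the lowest of the 15 libraries, with Hbb-b2 and Slc4a1 at 0 as in all KO GMP libraries.

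**Figure D4:**
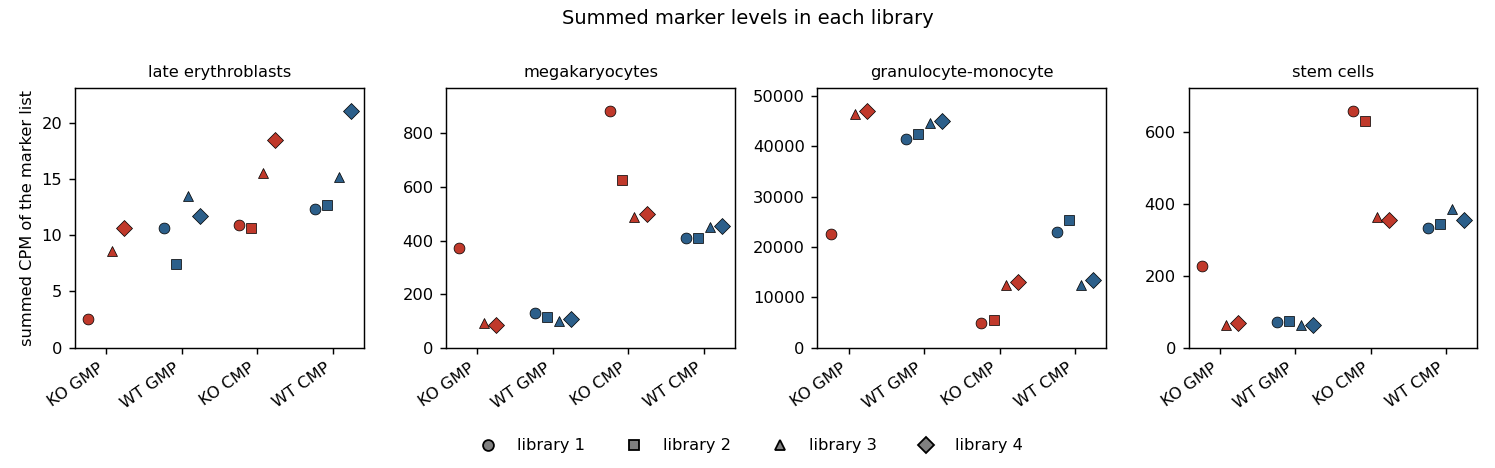
Summed CPM (vertical axis, linear) of marker lists for late erythroblasts, megakaryocytes, granulocyte-monocyte progenitors and stem cells in each library, grouped as KO GMP, WT GMP, KO CMP and WT CMP. KO GMP library 1 (373 CPM) and KO CMP libraries 1 and 2 (882 and 627 CPM) are highest of their groups for megakaryocyte markers, while late erythroblast sums stay at or under 21.0 CPM in every library.

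Whether the KO effect differed between the cell types was tested as CMP minus GMP. In edgeR 0 of the 8 genes were called, as were 0.0% of all tested genes, and DESeq2 called 0 of the 7 members for which it gave an adjusted p (all but Aqp1). At an unadjusted p under 0.05, edgeR gave 3 of the 8 (Car1, Aqp1 and Rhag, which was at 0 in WT GMP) and 2.97% of all tested genes. The differences were -3.16 ± 1.21 for Car1, -2.34 ± 0.99 for Aqp1, -0.64 ± 0.79 for Epor, -0.27 ± 0.49 for Car2, -0.36 ± 0.57 for Ank1 and -0.31 ± 0.17 for Tfrc (adjusted p = 1 for each). Without KO GMP library 1 Aqp1 was at 0.29, Car2 at 0.53, Epor at 0.61 and Ank1 at 0.24, all of the other sign. Car1 (-0.84), Tfrc (-0.37) and Rhag kept their sign.

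Genes that work with the 8 were followed through lists of the pathways they belong to. In the red cell membrane and its skeleton, 10 of 23 tested genes were lower and 2 higher in WT GMP than in WT CMP. Of all tested genes 14.2% were lower and 11.3% higher. The median log2 difference of the list was -0.93, against -0.02 over all tested genes. The erythroid membrane protein Ermap was at -6.08 ± 0.94 (adjusted p = 0.000615), the alpha spectrin gene listed as Spna1 at -5.11 ± 1.07 (adjusted p = 0.00353) and the tetraspanin Tspan33 at -2.41 ± 0.33 (adjusted p = 0.000293). Within CMP numbers 1 and 2 the same list gave 1 gene higher and 2 lower in KO, not above the shares of all tested genes (8.23% and 10.2%). Stom, the integral membrane protein stomatin, fell by 1.49 on the log2 scale (SE 0.09, adjusted p = 4.33e-07) and Mpp1, a scaffold of the membrane skeleton, fell by 0.86 (SE 0.08, adjusted p = 1.1e-05), while the adhesion molecule Icam4 rose by 0.85 ± 0.19 (adjusted p = 0.00807).

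Of 16 tested genes of erythropoietin signalling, 5 were lower and 1 higher in WT GMP than in WT CMP. The shares of all tested genes were 14.2% lower and 11.3% higher. The feedback inhibitors Cish (-1.78 ± 0.20, adjusted p = 0.000121) and Socs3 (-3.11 ± 0.42, adjusted p = 0.000284) and the kinase Pim1 (-0.77 ± 0.15, adjusted p = 0.0028) were among those lower. In KO CMP numbers 1 and 2, where Epor rose, 6 of the 16 rose and 0 fell, against 8.23% and 10.2% of all tested genes. They included the survival gene Bcl2l1 (0.95 ± 0.14, adjusted p = 0.000411), the transcription factor Stat5a (0.42 ± 0.08, adjusted p = 0.00238) and Socs3 (0.80 ± 0.15, adjusted p = 0.00311). The median of the list was 0.16, against 0.01 over all tested genes.

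Of 17 tested iron genes 3 were higher and 1 lower in WT GMP than in WT CMP, counts near the shares of all tested genes (11.3% and 14.2%). Hfe, which binds the transferrin receptor, was higher (1.21 ± 0.15, adjusted p = 0.00022) and so was the ferritin light chain Ftl1 (0.58 ± 0.15, adjusted p = 0.0124), while the erythroid and hepatic transferrin receptor Tfr2 was lower (-1.54 ± 0.31, adjusted p = 0.00304). Within CMP numbers 1 and 2, 3 of them rose and 6 fell in KO, against 8.23% and 10.2% of all tested genes. The mitochondrial transporter Abcb10 fell by 1.18 (SE 0.09, adjusted p = 1.72e-06), and Tfr2 (0.87 ± 0.13, adjusted p = 0.000482) and the ferrireductase Steap3 (0.49 ± 0.08, adjusted p = 0.0013) rose.

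Among 16 tested genes of heme metabolism, 4 were higher and 1 lower in WT GMP than in WT CMP. The shares of all tested genes were 11.3% higher and 14.2% lower. Alas1, the housekeeping first enzyme of heme synthesis, was at 1.46 ± 0.29 (adjusted p = 0.00309) and ferrochelatase, Fech, at 0.54 ± 0.12 (adjusted p = 0.00541). In KO CMP numbers 1 and 2, 3 of these 16 genes rose and 2 fell, against 8.23% and 10.2% of all tested genes. Alas1 fell by 1.91 (SE 0.09, adjusted p = 4.26e-08) and Fech fell by 0.52 (SE 0.07, adjusted p = 0.000301), while the heme-degrading oxygenase Hmox1 rose by 1.48 ± 0.27 (adjusted p = 0.00217). Of 5 tested globins 0 were called in WT GMP against CMP, and in KO CMP numbers 1 and 2 only Hba-a2 was called, with 0.0951 and 1.22 CPM in KO libraries against 4.43 and 4.36 CPM in WT libraries (adjusted p = 0.0265). Values of single globin genes are uncertain, since the handling of reads shared between them is not stated.

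Transcription factors of the erythroid programme were mostly lower in GMP. Of 17 tested, 11 were lower and 1 higher in WT GMP than in WT CMP, against 14.2% and 11.3% of all tested genes. The median of the list was -0.80. Those lower included Gfi1b (-3.00 ± 0.44, adjusted p = 0.000475), Tal1 (-1.14 ± 0.15, adjusted p = 0.000253) and Bcl11a (-0.96 ± 0.10, adjusted p = 9.6e-05). Within CMP numbers 1 and 2, 8 of the 17 rose and 3 fell in KO, with a median of 0.17. Of all tested genes 8.23% were called higher and 10.2% lower there. The factors of the list that rose included Gata1, the master regulator of red cell genes (1.21 ± 0.15, adjusted p = 9.95e-05), and the bridging factor Lmo2 (0.65 ± 0.07, adjusted p = 4.28e-05). Gata2, which acts earlier in progenitors, rose too (1.02 ± 0.11, adjusted p = 2.82e-05). Over all CMP libraries and in numbers 3 and 4, each of these lists gave 0 genes higher and 0 lower in KO.

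Relatives of the 8 genes were followed in the same way. Of 10 tested other carbonic anhydrases, 2 were lower in WT GMP than in WT CMP, Car5b (-1.67 ± 0.38, adjusted p = 0.00639) and Car11 (-4.17 ± 1.29, adjusted p = 0.0239), and 0 higher, where 14.2% of all tested genes were lower. Car12 rose in KO CMP numbers 1 and 2 (0.71 ± 0.20, adjusted p = 0.0249), and 0 fell, so 1 of 10 rose where 8.23% of all tested genes did. Of 12 tested relatives of the other 6 genes, 5 were lower in WT GMP and 0 higher, including the Rh blood group gene Rhd (-3.28 ± 0.71, adjusted p = 0.00464) and the aquaporin Aqp11 (-0.97 ± 0.24, adjusted p = 0.0102). In KO CMP numbers 1 and 2, Aqp9 (1.72 ± 0.26, adjusted p = 0.000579) and Tfr2 rose and Aqp3 fell by 2.94 (SE 0.92, adjusted p = 0.0431).

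Across the 15 libraries, the genes most like each member were found by Pearson's r of log2(CPM + 1) among 10119 other genes with a mean of at least 5 CPM. These values describe libraries that share the split into GMP and CMP and the libraries that stood apart, and no p is given. Aqp1 was closest to the urea transporter gene Slc14a1 (r = 0.998), Mfsd2b (0.995) and Zfpm1, the GATA cofactor (0.995). Car2 was closest to Esam (0.996), Sorbs3 (0.994) and the transcription factor Erg (0.993). Epor was closest to Basp1 (0.988), Cxxc5 (0.983) and Ndrg1 (0.983), and Car1 to Abcb4 (0.98), Pdzk1ip1 (0.977) and Samd14 (0.975). Abcb4 was also the nearest gene to Rhag (0.95) and Ank1 (0.954), and Smad7 to Add2 (0.922). The 7 genes other than Tfrc had r of 0.84 to 0.99 with each other, and Tfrc had r of -0.93 to -0.79 with them. Tfrc was closest to Ak4, Nin and Uggt1 (0.991 each).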

How the data were processed

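RNA was sequenced from sorted CMP and GMP of Trappc1 KO and WT mice, with libraries made by the SMARTER mRNA-Seq kit, per the labels' protocols. Reads were aligned with HISAT to mm10, per the submitters' processing notes; versions, the counting tool, its annotation and its use of strand are not given in the sources used for this work. The authors deposited expected counts (estimated counts) by gene symbol, with library totals that differ, so no scaling to a common total is seen. Multiples of 4 made up 38% of the 40915 values between 1 and 40, where an even spread gives 25%, and 1 fragment was taken as 4 units. Pairs of identical libraries numbered 0, and columns not used numbered 0.

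Values were rounded and analysed in R 4.3.3 with edgeR 4.0.16: filterByExpr on the groups (15181 genes), TMM scaling, 1 quasi-likelihood fit over all libraries with a coefficient per group (11 residual degrees of freedom), two-sided p with Benjamini-Hochberg adjustment across the tested genes, threshold 0.05. A further fit gave each number set of each group its own coefficient, which leaves 7 residual degrees. Errors after ± are SE for log2 differences and SD for levels. The tests were tried on simulated counts. Alternatives were DESeq2 1.42.0, its size factors, other filters, values divided by 4, single libraries left out, the replicate block, the cell type fitted alone, and leaving out the 3 KO libraries that stand apart. Same-numbered libraries of compared groups deviated together (14 pairs, r 0.198 to 0.537, against a median of -0.258 for other pairs). The replicate block, which pairs libraries by number, was therefore tried as an alternative to the fit by group. The p-values and errors given in the results come from fits that do not pair libraries. Libraries of different number within 1 and 2 or within 3 and 4 also deviated together (KO CMP 2 with WT CMP 1, r 0.341), so pairing by number cannot be told apart from those number sets.

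The 8 genes, the pathway and marker lists and the number sets were chosen with earlier results of these data known. Of 204 list symbols, 13 were matched through RefSeq synonyms and 4 were not matched. Named list genes are up to 3 per list with the smallest p in GMP against CMP in WT and in KO against WT in CMP numbers 1 and 2.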

Additional observations from a re-analysis of the deposited data

Results flagged for a closer look

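Within a group of 4 libraries, a gene was picked out when the gap between its highest or lowest library and the nearest other one took up an unusually large part of the range. Epor in WT GMP met this with library 4, at 0.956 CPM against 0.246 to 0.354 CPM in the other libraries. Aqp1 in WT GMP met it with library 4, at 0.262 CPM against 0.492 to 0.523 CPM. Aqp1 in KO CMP met it with library 1, at 49.0 CPM against 25.4 to 28.3 CPM. Of 22 groups of values tested, these 3 were picked out, where chance alone picks out about 1 in 20.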

How the results depend on the processing

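The replicate block changed no call of the 8 genes: in the paired fit 0 were higher or lower in KO against WT in CMP, in GMP and in the difference of the KO effects, and 7 were lower and 1 higher in GMP against CMP in each genotype. Over the settings other than leaving out a library, 564 member values kept direction and side of the threshold, and 2 gained, 4 lost and 5 changed direction. DESeq2 called 2 members higher in KO GMP, against 0 in edgeR; RLE size factors left 0 lower in the difference between CMP number sets, against 1; values divided by 4 left 3 higher in the difference between GMP number sets, against 5. Without the 3 KO libraries that stand apart, Ank1 in KO GMP turned to -0.08, and the difference of the KO effects (CMP minus GMP) to 0.15 for Car2, 0.42 for Epor and 0.33 for Ank1. With RLE size factors Rhag in WT CMP numbers 1 and 2 against 3 and 4 was at 0.0. The causes were not tested. In the fit by group, DESeq2 gave no adjusted p for Aqp1 in any comparison or for Add2 in KO against WT GMP. KO effects in GMP numbers 1 and 2 could not be fitted without KO GMP library 1.

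Leaving out each library in turn gave these ranges. Counts of members higher ran from 0 to 1 in WT GMP against CMP, 1 to 4 in KO CMP numbers 1 and 2, 1 to 2 in the difference between CMP number sets and 2 to 5 in that between GMP number sets; counts lower ran from 1 to 2 in KO CMP numbers 1 and 2 and 0 to 1 in the difference between CMP number sets. Log2 differences of KO over WT ran in CMP from -0.05 to 0.67 for Rhag, and in GMP from -0.08 to 0.81 for Ank1 and -0.02 to 0.07 for Tfrc. Their difference ran from -0.59 to 0.53 for Car2, -1.29 to 0.61 for Epor, -0.64 to 0.24 for Ank1 and -2.89 to 0.29 for Aqp1. In CMP numbers 1 and 2 it ran from -1.37 to 0.99 for Car1, -0.98 to 1.25 for Rhag, -0.73 to 0.28 for Ank1 and -1.47 to 0.13 for Add2, and in numbers 3 and 4 from -0.02 to 0.12 for Car2. Between CMP number sets it ran from -2.30 to 0.07 for Car1 and -1.24 to 0.99 for Rhag. In GMP numbers 3 and 4 Epor ran from -0.68 to 1.28. Between WT number sets the values ran in CMP from -0.07 to 0.28 for Car1, -0.52 to 0.39 for Rhag and -0.17 to 0.12 for Aqp1, and in GMP from -0.02 to 0.05 for Car2 and -1.52 to 0.43 for Epor.

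Depth limits Rhag, Add2 and Car1 in GMP: a group at 0 allows up to 3 fragments (0.0492 CPM in KO GMP, 0.0386 CPM in WT GMP), and bounds cover counting error only.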
